A study of Mus musculus with 6 samples.

Results

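The TAM receptor system of the mouse meninges and cortical surface was followed through its 5 genes, the ligand genes Gas6 and Pros1 and the receptor genes Axl, Mertk and Tyro3. The members were taken by gene symbol from single-cell RNA-seq count matrices, as 5 of 31053 genes, and described in every cell class of both preparations. The data came from 6 libraries of adult wild-type C57BL6 mice, each pooled from several mice of both sexes that were not perfused, so that blood cells were present and a library, not a mouse, was the replicate. In 4 libraries, called CSA1 to CSA4, cells had been freed from the cortical surface with its leptomeninges (cortical surface-associated, tissue label Brain). In the other 2 libraries, BA1 and BA2, cells came from the connective tissue under the skull with the dura (bone-associated, tissue label Dura/Skull). No treatment or genotype was compared, and the preparations differed in tissue, dissection and number of libraries.

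Gas6 and protein S, the product of Pros1, are secreted proteins that bind phosphatidylserine on dying cells and membrane fragments through a domain carboxylated with the help of vitamin K. Their other end activates the TAM receptor tyrosine kinases Tyro3, Axl and Mertk, which drive engulfment of the bound material and dampen inflammatory signaling. Gas6 can activate all members of the receptor family, whereas protein S acts mainly on Tyro3 and Mertk and is also an anticoagulant of plasma. In the brain, Mertk is best known as a receptor by which microglia and astrocytes take up debris and synapses, and Axl as a receptor of dendritic cells, vascular mural cells and activated phagocytes.

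On the GRCm38 (mm10) build with GENCODE annotation, Gas6 (ENSMUSG00000031451) lay at chr8:13465374-13494490 on the minus strand and overlapped Tmem255b on the other strand. Pros1 (ENSMUSG00000022912) lay at chr16:62854307-62929346 on the plus strand, and Axl (ENSMUSG00000002602) at chr7:25757273-25788705 on the minus strand. Mertk (ENSMUSG00000014361) lay at chr2:128698956-128802894 on the plus strand and overlapped the antisense gene Gm14011, and Tyro3 (ENSMUSG00000027298) at chr2:119797733-119818104 on the plus strand. The values are those of whole genes and not of single transcripts. The promoters of Gas6 and Axl are shown because these were the members called between the preparations below, in the classes as named. The Axl call depended on which cells were counted. Each is the stretch of 250 bases before the RefSeq start (GRCm38.p6, minus strand, 5′ to 3′), at chr8:13494536-13494785 for Gas6 and chr7:25788734-25788983 for Axl, and capitals mark the GC box GGGCGG or its reverse complement CCGCCC:
Gas6: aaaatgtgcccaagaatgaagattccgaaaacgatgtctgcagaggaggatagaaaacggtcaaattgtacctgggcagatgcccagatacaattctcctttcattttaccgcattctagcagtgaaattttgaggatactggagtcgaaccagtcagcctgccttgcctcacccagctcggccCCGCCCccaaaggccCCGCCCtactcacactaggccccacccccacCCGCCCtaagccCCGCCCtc
Axl: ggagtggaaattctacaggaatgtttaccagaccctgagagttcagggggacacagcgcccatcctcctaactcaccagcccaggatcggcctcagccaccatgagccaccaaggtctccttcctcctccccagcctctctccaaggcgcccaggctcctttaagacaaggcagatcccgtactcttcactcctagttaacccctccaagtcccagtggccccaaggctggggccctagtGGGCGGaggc
The Gas6 stretch held 4 GC boxes and the Axl stretch 1, while those of Pros1, Mertk and Tyro3 held 5, 3 and 3. Of 32851 RefSeq promoter stretches of the same length, 32.7% held a GC box. The AP-1 motif TGANTCA, which is its own reverse complement, was in none of the 5 members and in 6.75% of all promoters. These matches describe letters in a window and no binding was measured.

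The matrices held 8408685 to 56169736 UMIs (unique molecular identifiers, counted transcript molecules) in 951 to 5602 barcodes, and hemoglobin genes took 84.6% and 71.9% of those of CSA3 and CSA4 against 0.0908 to 0.520% elsewhere. After filtering, 8680 cells remained, 5272 from the cortical surface and 3408 bone-associated, with a median of 5452 to 9525 UMIs per cell in each library. Pairs of libraries shared 0 to 2 barcodes. Clusters were named from marker genes with the suffix "-like", and 1373 cells (15.8%) stayed unnamed, 766 and 607 in the 2 preparations. The mesenchymal-like cells are called leptomeningeal in CSA and dural in BA libraries, after the tissue they came from, and held Pdgfra at a mean of 428 and 204 CPM. Border macrophage-like cells held Mrc1 at 3845 and 1902 CPM, against 10.8 CPM in microglia-like cells, whose own gene Sall1 stood at 349 CPM there and at most at 1.51 CPM in border macrophage-like cells. Levels below are CPM, the UMIs of a gene relative to every 1e6 UMIs summed over the cells of a class in 1 library with at least 10 such cells.

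The members were detected unequally. Gas6 had 15615 UMIs in 3016 cells (34.7% of 8680), Mertk 5032 UMIs in 2028 cells, Pros1 4579 UMIs in 2574 cells and Axl 4334 UMIs in 1949 cells. Tyro3 had only 135 UMIs in 92 cells (1.06%).

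Gas6, the ligand with the broadest receptor range, changed its leading cell class between the preparations. On the cortical surface its highest level was that of border macrophage-like cells, with 770, 971, 758 and 823 CPM in CSA1 to CSA4 (830 ± 97.8, SD, n = 4). In the bone-associated libraries it was that of dural cells, with 847 and 799 CPM (823 ± 33.7, SD, n = 2). Each of these lay above every other named class of its preparation in all libraries. Next on the cortical surface came choroid plexus-like cells at 506, 103 and 88.0 CPM in CSA2 to CSA4, whose range spanned that of endothelial-like cells at 251, 271, 158 and 169 CPM. The choroid plexus-like values came from 12, 36 and 100 cells. Leptomeningeal cells followed at 75.6, 147, 156 and 63.1 CPM (110 ± 47.7, n = 4) and overlapped with microglia-like cells at 101, 147, 87.2 and 102 CPM (109 ± 25.9, n = 4). In the bone-associated libraries the border macrophage-like cells held 398 and 508 CPM and the endothelial-like cells 484 and 388 CPM, so their order could not be told. Vascular smooth muscle (VSMC)-like cells had 66.1 and 66.4 CPM in CSA1 and CSA2, the CSA libraries in which the class was found, and 99.7 and 105 CPM in BA libraries. Gas6 was nearly absent from lymphocytes and neutrophils, with class means of 0 to 3.91 CPM in B-like, T or NK-like and neutrophil-like cells of either preparation.

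Pros1, the gene of protein S, was spread more evenly. Its highest CSA level was in microglia-like cells, at 265, 255, 243 and 253 CPM (254 ± 9.0, SD, n = 4), above all other classes in every library. Pericyte-like cells held 137, 148, 117 and 142 CPM, leptomeningeal cells 137, 126, 106 and 71.0 CPM and endothelial-like cells 101, 112, 72.6 and 81.1 CPM, and these neighbours overlapped. In the bone-associated preparation endothelial-like cells (145 and 127 CPM), pericyte-like cells (166 and 88.6 CPM) and dural cells (144 and 65.9 CPM) could not be ordered. Border macrophage-like cells were similar in level across the preparations, with 64.3 ± 12.2 (n = 4) and 65.9 ± 30.6 CPM (n = 2). Mast-like cells, found only among BA libraries, held 105 and 47.1 CPM. VSMC-like cells were low, at 20.0 CPM in CSA and 25.8 CPM in BA libraries.

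**Figure D1:**
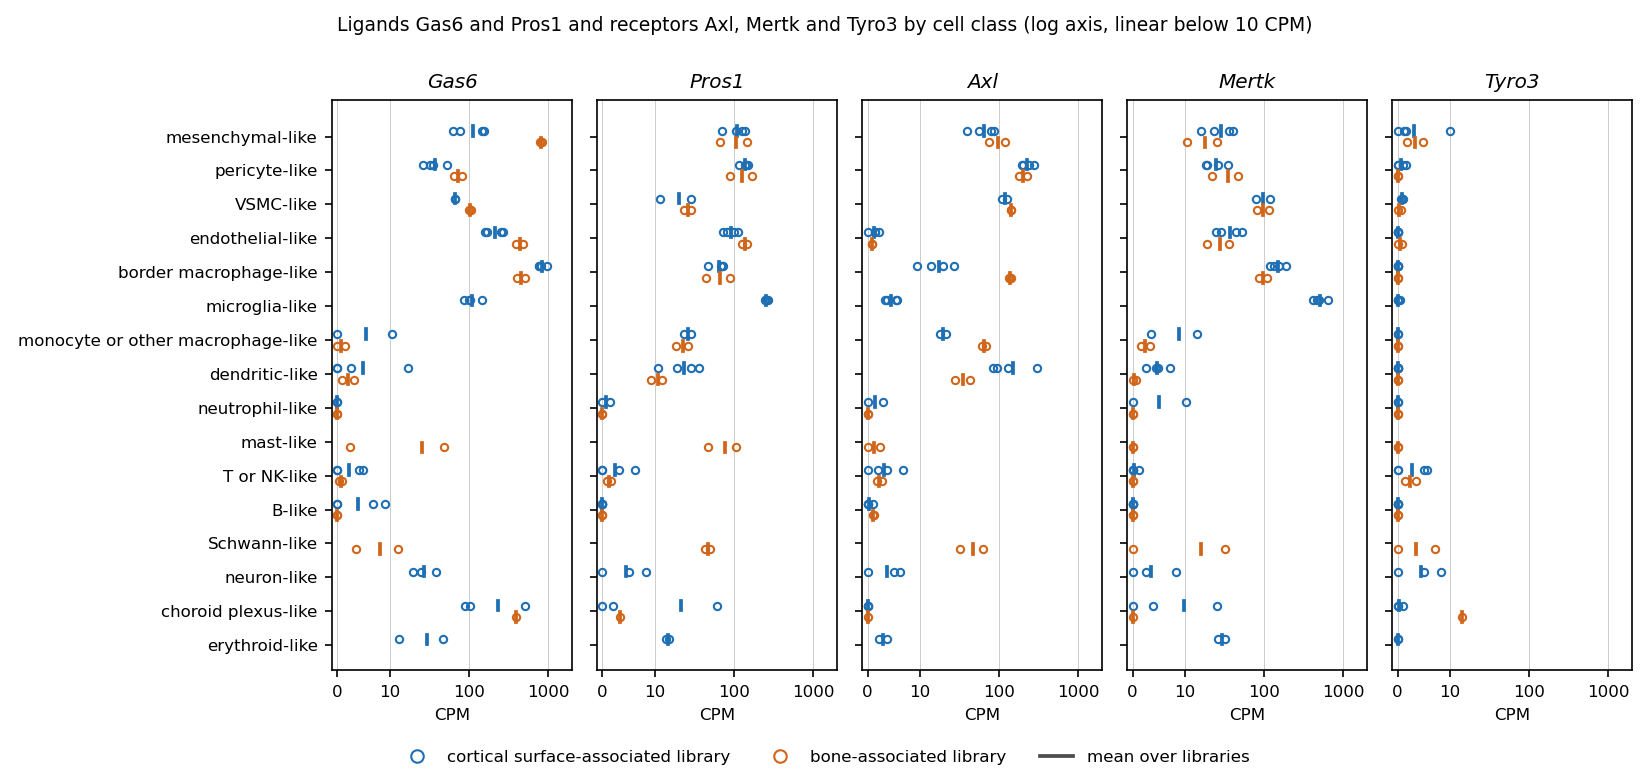
CPM of each member (x axis, logarithmic above and linear below 10 CPM) in every named cell class with at least 10 cells in a library (y axis). Each circle is 1 library, blue for cortical surface and orange for bone-associated, and short bars are means. Gas6 peaks in border macrophage-like cells in blue (830 CPM) and in mesenchymal-like cells in orange (823 CPM), Mertk in microglia-like cells (504 CPM), and Tyro3 stays near 0.

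Axl, a receptor that binds Gas6 most tightly, was highest in pericyte-like cells among the named classes. Pericyte-like cells held 276, 202, 237 and 196 CPM on the cortical surface (228 ± 36.9, SD, n = 4) and 226 and 177 CPM in the bone-associated libraries (201 ± 34.3, n = 2). This class was mixed and held 99, 152, 59 and 187 cells in CSA1 to CSA4. Of these, 53, 71, 27 and 84 were in clusters with Ccl19 among their leading genes. In BA1 and BA2 it was 11 of 29 and 36 of 113 cells. The Axl level without these clusters is not given. VSMC-like cells held 126 and 110 CPM in CSA1 and CSA2 and 142 CPM in both BA libraries. Leptomeningeal cells held 78.7, 55.3, 85.6 and 39.5 CPM, and dural cells 118 and 74.3 CPM. Dendritic-like cells, second by their CSA mean (151 ± 99.5, SD, n = 4), differed widely among CSA libraries, at 297, 93.0, 131 and 83.3 CPM, overlapping with pericyte-like and VSMC-like cells, and were lower in BA libraries at 27.6 and 42.1 CPM. Their CSA values came from 12, 13, 33 and 91 cells in CSA1 to CSA4. Border macrophage-like cells held 9.34, 13.6, 27.2 and 19.3 CPM in CSA and 140 and 134 CPM in BA libraries. Endothelial-like cells lay next to the mural cells but held 4 Axl UMIs in 458 cells and 3 in 452 cells of the preparations, or 1.24 and 0.765 CPM. Microglia-like cells held 3.35 to 5.52 CPM, and choroid plexus-like cells none in classes of at least 10 cells.

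Outside the named classes, the highest Axl levels of the cortical surface were those of 2 small unnamed clusters led by Agt, with 32 cells at 459 and 387 CPM in CSA2 and CSA4 and with 17 cells at 357 CPM in CSA2. A larger unnamed CSA cluster also had more Axl than the named immune classes, with the exception of dendritic-like cells of CSA1. It comprised 302 cells, 27, 44, 94 and 137 in CSA1 to CSA4, with a median of 7811 UMIs, and was led by the antigen-presentation genes H2-Eb1, H2-Aa, H2-Ab1 and Cd74 and by Cxcl14 and Clec4b1. Its Axl level was 277, 274, 252 and 252 CPM. It stayed unnamed because fewer than 3 markers of any class led it. The 8 border macrophage markers summed to 686 to 900 CPM in it, against 10649 to 11035 CPM in border macrophage-like cells of the same libraries, and Mrc1 stood at 423 to 483 CPM. The microglia markers summed to 1256 to 1478 CPM in it, and the monocyte and macrophage markers to 847 to 1219 CPM, of which Ccr2 alone made up 805 to 1079 CPM. Its other TAM genes were lower, with Gas6 at 99.9, 82.4, 33.1 and 56.8 CPM, Mertk at 10.8 to 47.9 CPM, Pros1 at 24.9 to 43.2 CPM and no Tyro3 UMI.

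Mertk, the receptor of professional phagocytes, was highest in microglia-like cells, at 637, 413, 468 and 497 CPM (504 ± 95.5, SD, n = 4). Border macrophage-like cells came next with 190, 132, 155 and 117 CPM (148 ± 31.6, n = 4) and VSMC-like cells with 117 and 78.3 CPM, and the lowest border macrophage-like library stood just above the highest VSMC-like one. In the bone-associated libraries, which held no microglia-like cells, border macrophage-like cells (109 and 85.4 CPM) and VSMC-like cells (114 and 80.6 CPM) overlapped. Endothelial-like, mesenchymal-like and pericyte-like cells had class means of 18.0 to 37.1 CPM. On the cortical surface their libraries overlapped with those of erythroid-like cells, at 26.3 to 31.9 CPM, and the part of free RNA in these levels was not tested. No Mertk UMI was found in BA B-like, T or NK-like, mast-like, neutrophil-like or choroid plexus-like cells.

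Tyro3, known mostly from neurons and oligodendrocytes, was rare in nearly all classes. Class means were at most 4.43 CPM, reached by neuron-like cells, outside of 2 small groups. A cluster of 13 oligodendrocyte-like CSA cells, spread over 4 libraries with under 10 cells in each, had a Tyro3 UMI in 12 cells (92.3%, 95% exact interval 64.0 to 99.8%). Choroid plexus-like BA cells had one in 9 of 23 cells (39.1%, 19.7 to 61.5%), and 18 of these cells came from BA1. The name of this BA class is uncertain. The paper lists choroid plexus cells for the cortical surface, and no CNS cell types for the bone-associated tissue. The Tyro3 level was 14.0 CPM in the BA1 cells, against a mean of 0.319 CPM in CSA choroid plexus-like cells. Whether the BA cells belong to the choroid plexus was not tested. No Tyro3 UMI occurred in 707 CSA or 114 BA border macrophage-like cells, and with a floor of 3 counts up to 0.424% and 2.63% of them could hold a UMI, which limits detection and not expression. Astrocyte-like cells, 19 in all and too few for a level per library, had Mertk UMIs in 13 cells (68.4%, 43.4 to 87.4%), Axl and Gas6 in 10 cells each, Pros1 in 5 and Tyro3 in 2. These intervals and limits cover counting error only.

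Shares of cells with a UMI were read against lymphocytes, as a guide to what free RNA or misassigned reads can give. Erythroid-like CSA cells had higher shares, with Gas6 UMIs in 23 and Mertk UMIs in 25 of 130 cells. Their class means were 29.6 CPM for Gas6 and 29.1 CPM for Mertk, and the part of free RNA in them was not tested. Gas6 UMIs occurred in 3 of 367 B-like CSA cells (0.817%, median depth 3830 UMIs) and in none of 344 B-like BA cells (median 4787.5 UMIs). They occurred in 659 of 707 CSA border macrophage-like cells (93.2%, median 7901 UMIs), in 261 of 286 dural cells (91.3%, median 14872.5 UMIs) and in 99 of 280 leptomeningeal cells (35.4%, median 7756 UMIs). With every cell thinned to 1500 UMIs, and 76, 3 and 14 shallower cells left out, these shares were 69.4%, 59.0% and 11.7%. Mertk was found in 655 of 751 microglia-like cells (87.2%; 49.4% when thinned), 384 CSA border macrophage-like cells (54.3%; 18.1%) and 64 of 114 BA border macrophage-like cells (56.1%; 15.2%), but in no B-like cell. Without thinning, the Mertk shares did not follow the order of its levels, since CSA VSMC-like cells, at a mean of 97.6 CPM, held it in 160 of 259 cells (61.8%). With thinning to equal depth, their share of 14.0% was below those of the microglia-like and border macrophage-like cells. Axl was found in 82 of 114 BA border macrophage-like cells (71.9%; 8.93%) and 66 of 707 CSA ones (9.34%; 1.74%). In endothelial-like cells Axl was seen in 0.873% and 0.664% of cells, compared with 0.272% and 0.581% of B-like cells.

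Ligand and receptor were often found in the same cell. A UMI of both Gas6 and Mertk occurred in 379 of 707 CSA border macrophage-like cells (53.6%, against 50.6% from the product of the single shares) and in 277 of 751 microglia-like cells (36.9% against 35.3%). Gas6 and Axl occurred together in 73 of 114 BA border macrophage-like cells (64.0% against 65.0%), in 153 of 286 dural cells (53.5% against 53.0%) and in 46 of 280 leptomeningeal cells (16.4% against 12.6%). The shares of joint detection stood close to the products, and cells with both genes were deeper than the others. For Gas6 and Mertk the medians were 11975 against 3086 UMIs in CSA border macrophage-like cells and 7143 against 5558 UMIs in microglia-like cells. For Gas6 and Axl they were 14301 against 11840 UMIs in BA border macrophage-like cells. In dural cells they were 16123 against 13411 UMIs, and in leptomeningeal cells 12202 against 7167 UMIs.

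Leptomeningeal and dural cells, the fibroblast-like cells of the inner and outer meninges, were compared for the genes that set the layers apart. Gas6 was 6.80-fold lower in leptomeningeal than in dural cells, with a log2 fold change of -2.76 (SE 0.30, adjusted p = 3.51e-07, edgeR quasi-likelihood test with Benjamini-Hochberg adjustment over all genes). The 4 CSA libraries, at most 156 CPM, lay below both BA libraries, at least 799 CPM. A gene was called when its adjusted p was below 0.05 and its log2 fold change at least 1.3 in size, and of 9597 genes tested 14.3% were called, against 1 of the 4 members tested, which is not far from this share. Axl had a log2 fold change of -0.43 (SE 0.31, adjusted p = 0.419) and Pros1 of 0.31 (SE 0.31, adjusted p = 0.614) in the same edgeR test, and the groups overlapped for both. Mertk had 1.10 (SE 0.43, adjusted p = 0.0868), and was called without BA1, at 1.52 with an edgeR adjusted p = 0.0334. The Gas6 log2 fold change ranged from -3.25 to -2.57 over 18 alternative settings, it was called in 18 of them, and with CSA1 and CSA2 alone, which held few hemoglobin UMIs, it was -2.86. Beside this result, the border macrophage markers summed to 55.3 to 1308 CPM in leptomeningeal libraries and to 5.45 to 6.06 CPM in dural ones, while astrocyte markers summed to 1362 to 1579 against 139 to 216 CPM, VSMC markers to 63.1 to 271 against 674 to 749 CPM and B cell markers to 34.0 to 70.5 against 430 to 596 CPM. Up to 6 of the 8 B cell markers had no UMI in a dural library, and up to 7 in a leptomeningeal one. The B cell sums therefore rest on few genes of the list. The part of these lists in the result was not tested. Erythroid markers summed to as much as 111601 CPM in leptomeningeal libraries, and with hemoglobin genes left out the Gas6 log2 fold change was -2.81.

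Border macrophages line the meninges and vessels and are phagocytes of the brain borders. Their Axl level was 9.87-fold lower in CSA than in BA libraries, with a log2 fold change of -3.30 (SE 0.33, adjusted p = 0.000174, edgeR quasi-likelihood test), but this depended on which cells were counted as border macrophages. With the unnamed H2-Eb1-led cluster added to the CSA cells, an alternative chosen after seeing the data, the Axl log2 fold change was -0.45 (SE 0.56, edgeR adjusted p = 0.728) and was not called. The named classes did differ in the genes that led that cluster: H2-Eb1 stood at 4839 and 6683 CPM in BA border macrophage-like cells, at 14.0 to 302 CPM in CSA ones and at 12285 to 14511 CPM in the unnamed cluster. The BA class was a single cluster of 114 cells led by Pf4 and C1qc, 16 of them from BA1. The CSA class consisted of 3 clusters led by Ccl7 and Ccl2, by Adam33 and by Ccl8 and Chp2. The Ccl7-led cluster made up 149 of 189 and 172 of 212 class cells in CSA1 and CSA2. In CSA3 and CSA4 it made up 8 of 137 and 19 of 169, so the mix of clusters differed between these pairs of libraries. In the comparison as named, 6.39% of 7711 genes were called.

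Gas6 and Mertk levels of CSA border macrophage-like cells lay above those of BA cells without overlap but were not called, with log2 fold changes of 0.72 (SE 0.25, edgeR adjusted p = 0.107) and 0.51 (SE 0.24, edgeR adjusted p = 0.236). With the unnamed cluster added they were 0.26 and 0.14. Pros1 had a log2 fold change of 0.03 (SE 0.29, edgeR adjusted p = 0.981). In the 18 other alternatives in which Axl was tested it was called each time, between -3.74 with CSA1 and CSA2 alone and -2.71 without the Ccl7-led cluster. When cells were thinned to 1500 UMIs it fell under the detection limit and was not tested. Erythroid markers summed to as much as 64707 CPM in CSA and 27163 CPM in BA border macrophage-like libraries, and leaving out hemoglobin genes gave -3.32 for Axl.

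The change of Gas6 between preparations differed between the mesenchymal-like and the border macrophage-like cells. The difference of the 2 changes, a test chosen after seeing the data, was -3.62 on the log2 scale (SE 0.45, adjusted p = 1.24e-05, edgeR, 12 summed profiles with library as a term and 4 residual degrees of freedom). It was -3.24 (SE 0.50, edgeR adjusted p = 0.000256) with the unnamed cluster added. For Axl the difference was 2.98 (SE 0.39, edgeR adjusted p = 2.45e-05), but 0.45 (SE 0.47, edgeR adjusted p = 0.658) with that cluster added. For Pros1 and Mertk it was 0.39 and 0.59, with edgeR adjusted p = 0.60 and 0.498. In this test 9.05% of 10422 genes were called.

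The vascular classes showed smaller differences, none of which was called. In endothelial-like cells, which line the vessels, Gas6 was lower in CSA than in BA libraries, with a log2 fold change of -1.02 (SE 0.20, edgeR adjusted p = 0.00184), a size under the limit of 1.3, while 7.63% of 7724 genes were called. The class left out unnamed clusters led by Gkn3. Over 19 alternatives, of which one added these clusters, the Gas6 value ranged from -1.15 to -0.66 and was never called. Pros1 had -0.53 (SE 0.20, edgeR adjusted p = 0.0891) and Mertk 0.53 (SE 0.31, edgeR adjusted p = 0.296), and Axl was too rare to be tested. In pericyte-like cells, named after the contractile cells of capillaries, Gas6 had -1.19 (SE 0.31, edgeR adjusted p = 0.0202), again under 1.3, and was called without CSA3 at -1.35 (edgeR adjusted p = 0.00851). This class was mixed: clusters with Ccl19 among their leading genes held 38.4 to 105 CPM of Gas6 in CSA libraries and 128 and 136 CPM in BA2, and without these clusters the value was -1.16 (edgeR adjusted p = 0.328). The whole class held 26.3 to 52.6 CPM of Gas6 in CSA and 64.3 and 80.9 CPM in BA libraries. Its CSA range overlapped with that of erythroid-like cells, at 12.9 to 46.4 CPM, and the part of free RNA was not tested. Mesenchymal markers summed to 1074 to 1569 CPM in CSA and to 2557 to 3172 CPM in BA pericyte-like libraries, and their part was not tested. There 6.78% of 7304 genes were called. Axl, the member for which pericyte-like cells ranked highest, had a log2 fold change of 0.06 (SE 0.22, edgeR adjusted p = 0.925) between the preparations. In VSMC-like cells, compared over 2 libraries each, Gas6 had -0.75 (SE 0.24, edgeR adjusted p = 0.0656) and Axl -0.39 (SE 0.23, edgeR adjusted p = 0.388), with 5.93% of 8380 genes called.

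**Figure D2:**
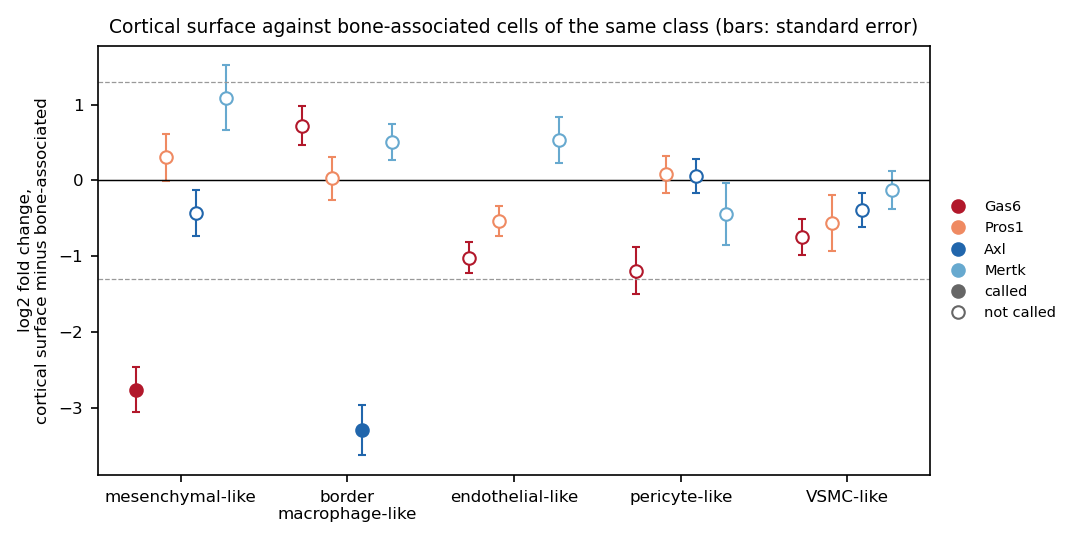
Log2 fold change of 4 members, cortical surface minus bone-associated (y axis), in the 5 cell classes compared between the preparations (x axis). Bars are standard errors and dashed lines lie at 1.3. Filled points were called: Gas6 in mesenchymal-like cells (-2.76) and Axl in border macrophage-like cells (-3.30), the latter only while the unnamed H2-Eb1-led cluster was left out of that class.

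Within the cortical surface, the phagocytes of the border and of the parenchyma both held Gas6, Pros1 and Mertk, at different levels. Against microglia-like cells, border macrophage-like cells had a 9.03-fold higher Gas6 level (log2 fold change 3.18, SE 0.34, adjusted p = 1.68e-10, edgeR quasi-likelihood test with library as covariate). Pros1 was 3.36-fold lower (-1.75, SE 0.26, edgeR adjusted p = 5.41e-07) and Mertk 2.89-fold lower (-1.53, SE 0.21, edgeR adjusted p = 9.52e-08) in the border macrophage-like cells. In each case the 4 libraries of one class lay outside the range of the other. How many of all genes lay apart in this way is not given, so this describes the members only. Of 7381 genes 16.4% were called, against 3 of the 3 members tested. All 3 were called in 19 of 19 alternatives, and with CSA1 and CSA2 alone they were 3.01, -1.68 and -1.47. Axl was detected in too few cells to be tested, at 86 and 21 UMIs. With the unnamed cluster added, Axl passed the detection limit only through the cells of that cluster. Its fitted log2 fold change of 4.71 (SE 0.43) then reflects the choice of cluster and is not read as a test.

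Leptomeningeal cells carried less Gas6 and Mertk than the border macrophage-like cells of the same libraries. Gas6 was 8.41-fold lower (log2 fold change -3.07, SE 0.36, edgeR adjusted p = 1.58e-09) and Mertk 5.44-fold lower (-2.44, SE 0.29, edgeR adjusted p = 1.81e-09). Axl was 3.87-fold higher in leptomeningeal cells (1.95, SE 0.30, edgeR adjusted p = 4.7e-07), and this direction turned to -0.74 (SE 0.33, edgeR adjusted p = 0.0548) with the unnamed cluster added to the macrophages. Pros1 was 0.69 higher on the log2 scale (SE 0.29, edgeR adjusted p = 0.0425), under the limit of 1.3. With 33.1% of 8803 genes called, 3 of 4 members tested were called. With CSA1 and CSA2 alone Gas6, Axl and Mertk were at -3.23, 2.21 and -2.56 and were called.

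Against endothelial-like cells, leptomeningeal cells differed in Axl, with 162 UMIs against 4, a ratio of 45.4 between their CPM (95% counting interval 17.4 to 169; fitted log2 fold change 5.39, SE 0.49, edgeR adjusted p = 1.92e-12). Here 25.7% of 8544 genes were called, and with CSA1 and CSA2 alone the Axl value was 5.24. Gas6 had -0.87 (SE 0.36, edgeR adjusted p = 0.0489) and was called in 2 of 18 alternatives. In 1 of these 2, which kept cells with up to 20% mitochondrial UMIs, Mertk was called too. Axl was called in all 17 alternatives in which it was tested. The contrast in Axl was also present in the bone-associated libraries, where dural cells held 347 UMIs and endothelial-like cells 3, a ratio of 104 (35.4 to 508; fitted log2 fold change 6.74, SE 0.45, edgeR adjusted p = 6.54e-15), with 26.6% of 9848 genes called. Pericyte-like cells exceeded endothelial-like cells in Axl 161-fold (62.7 to 594) on the cortical surface and 245-fold (82.8 to 1200) in the bone-associated libraries by the same counting ratio. The pericyte-like class here included the clusters with Ccl19 among their leading genes. Dural Gas6 was 1.02 above endothelial Gas6 on the log2 scale (SE 0.23, edgeR adjusted p = 0.00043), under the limit of 1.3.

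Against the border macrophage-like cells of their own libraries, dural cells had 8.89-fold less Mertk (log2 fold change -3.15, SE 0.36, edgeR adjusted p = 6.77e-09), the only member called where 38.5% of 10100 genes were. Axl had -1.05 (SE 0.26, edgeR adjusted p = 0.000932), under 1.3, and turned to 0.69 (edgeR adjusted p = 0.295) when cells were thinned. Gas6 had 0.38 (SE 0.25, edgeR adjusted p = 0.206) and Pros1 0.25 (SE 0.32, edgeR adjusted p = 0.544), although the Gas6 levels of the classes did not overlap.

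The clusters inside the classes, described without a test because the clusters were drawn from the same cells, showed that Gas6 varied within the vessels and the dura. Bone-associated endothelial-like cells led by Btnl9 and Gpihbp1 held 623 and 490 CPM and those led by Selp and Sele, adhesion molecules of venules, 706 and 318 CPM. Cells led by the transporters Slc38a5 and Slco1a4, which mark vessels with a blood-brain barrier, held 231 and 265 CPM. This lay within the range of the Slc38a5-led CSA cluster at 235, 273, 178 and 145 CPM, so that endothelial-like cells led by the same transporter were near in level in the 2 preparations. Dural cells led by Comp and Cilp2, genes of tendon-like matrix, held 1050 and 828 CPM of Gas6 with 82.5 and 49.3 CPM of Axl, and those led by Apod and Inmt 450 and 728 CPM of Gas6 with 188 and 137 CPM of Axl. The dural clusters were thus ordered oppositely for ligand and receptor in both BA libraries. The whole dural class held 32 cells in BA1 against 254 in BA2, so the order in BA1 rests on few cells. The CSA macrophage cluster led by Ccl8 and Chp2, of low depth, held 29.4 to 54.4 CPM of Mertk, below the 126 to 196 CPM of the 2 other border macrophage-like clusters.

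**Figure D3:**
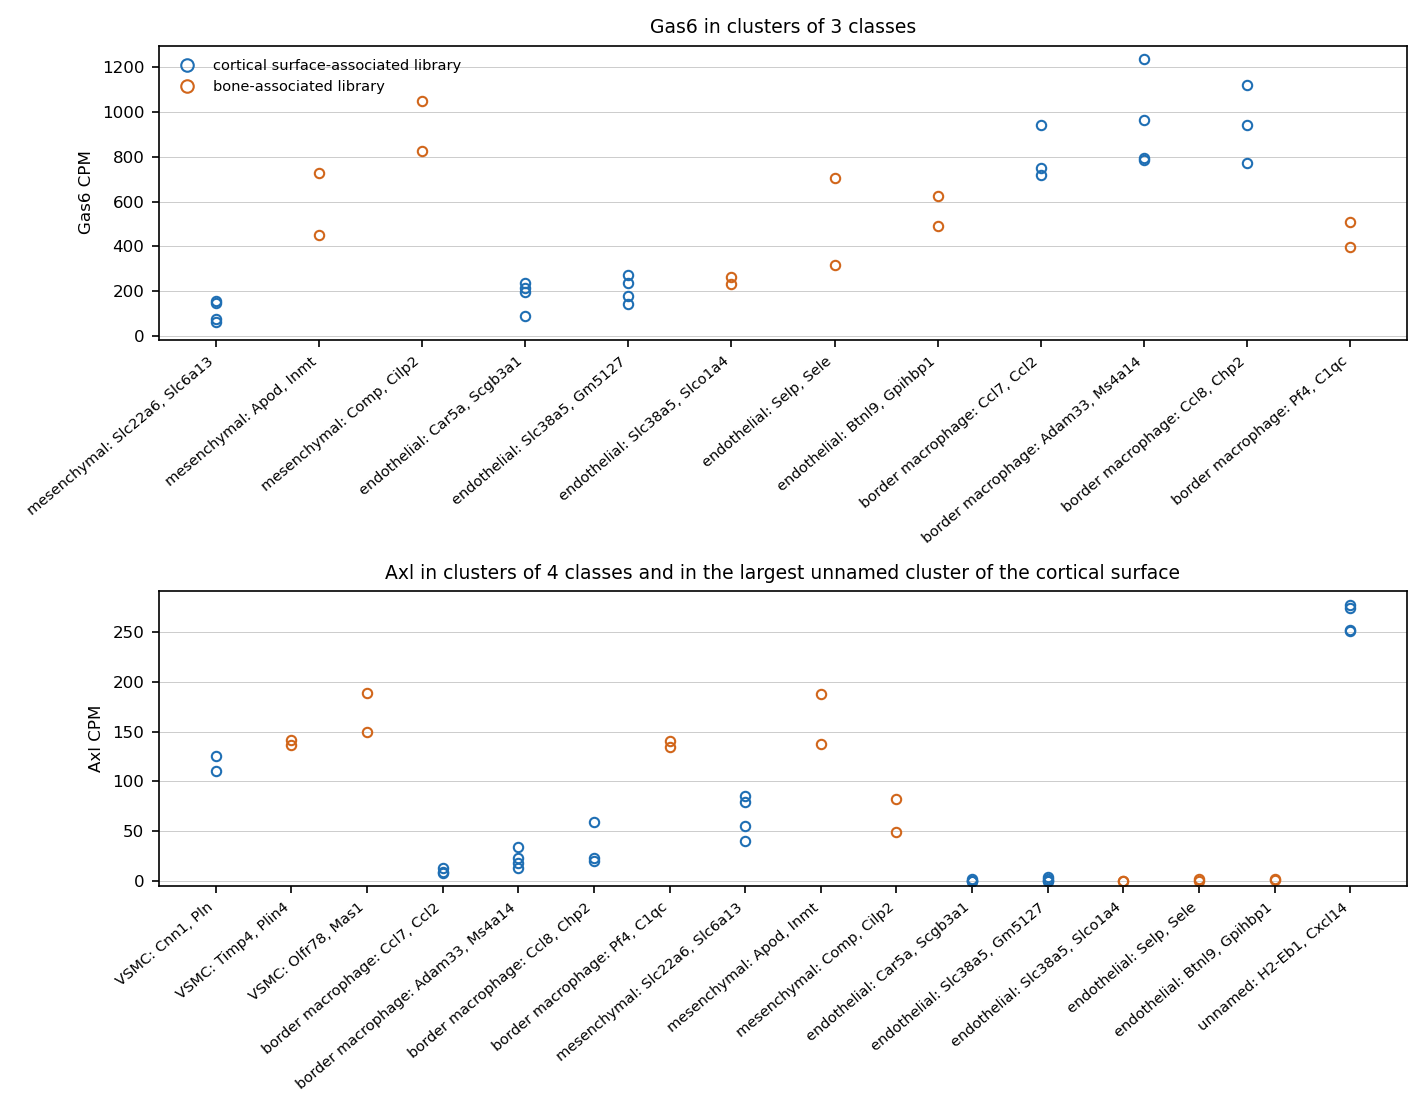
CPM of Gas6 (upper panel) and Axl (lower panel) in single clusters of the mesenchymal-like, endothelial-like and border macrophage-like classes, and for Axl also of VSMC-like cells and the unnamed cluster (x axis, named by class and 2 leading genes), with 1 circle per library with at least 10 cells, blue for cortical surface and orange for bone-associated. Axl lies between 252 and 277 CPM in the unnamed H2-Eb1 and Cxcl14 cluster, against 134 and 140 CPM in the Pf4 and C1qc cluster of bone-associated macrophages.

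Genes that work with the TAM system were followed as 4 lists. Between leptomeningeal and dural cells, 5 of 16 bridging proteins and receptors of phosphatidylserine were tested, of which 1 was called, with a median log2 fold change of -0.41 against 0.00 for all genes, of which 14.3% were called. It was Megf10, an engulfment receptor, at 3.38 (SE 0.62, edgeR adjusted p = 0.000254), with overlapping groups. Of the vitamin K cycle, which makes both ligands active, 5 of 6 genes were tested and none called, with a median of -0.95. Of 8 tested genes for shedding, feedback and transcription of the receptors, the cytokine feedback inhibitors Socs1 (-1.95, SE 0.40, edgeR adjusted p = 0.000984) and Socs3 (-2.27, SE 0.57, edgeR adjusted p = 0.00587) were lower in leptomeningeal cells. Of 11 tested engulfment and phosphatidylserine exposure genes, the flippase gene Atp11a was lower (-1.73, SE 0.50, edgeR adjusted p = 0.0162), with overlapping groups.

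Between border macrophage-like and microglia-like cells, 8 of the 9 tested genes of phosphatidylserine bridging and recognition were called, 3 higher and 5 lower, with a median of -2.18 against 0.04 for all genes, of which 16.4% were called. Stab1, a scavenger receptor, was higher in the border macrophage-like cells (3.33, SE 0.50, edgeR adjusted p = 4.17e-07). Timd4, a tethering receptor for phosphatidylserine, had 377 UMIs there and none in microglia-like cells, a level at least 96.9-fold higher with a floor of 3 counts over the group. Cd36, a scavenger receptor of lipids, had 2002 UMIs against 3, a ratio of 515 (176 to 2498). Lower were the integrin genes Itgav (-2.24), Itgb3 (-3.91) and Itgb5 (-2.68), the endocytic receptor gene Lrp1 (-2.34) and the microglial lipid receptor gene Trem2 (-2.18), with edgeR adjusted p-values between 1.01e-12 and 3.09e-05. The protease gene Adam10, which can shed surface proteins, was lower (-1.81, SE 0.17, edgeR adjusted p = 8.13e-12), as was the engulfment adaptor gene Elmo1 (-2.04, SE 0.21, edgeR adjusted p = 1.12e-10). None of 3 tested vitamin K cycle genes was called.

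**Figure D4:**
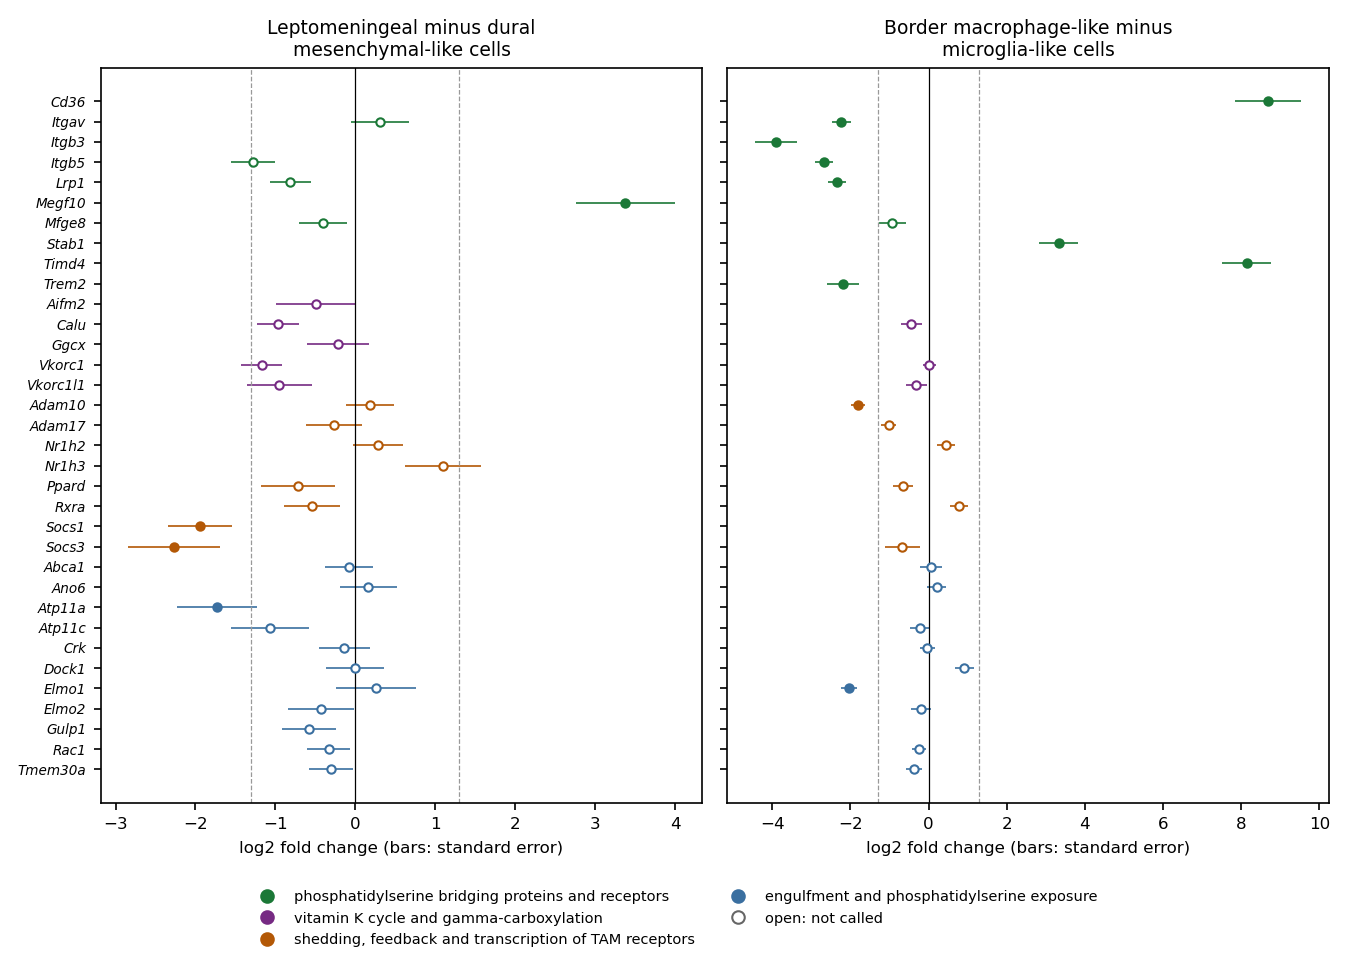
Log2 fold change with standard error (x axis) of the genes in 4 pathway lists (y axis, colored by list) for leptomeningeal minus dural cells (left) and border macrophage-like minus microglia-like cells (right), filled where called, with dashed lines at 1.3. Timd4, without a UMI in microglia-like cells, and Cd36, with 3, are fitted values; the microglia-like cells are higher in 5 of 9 tested phosphatidylserine genes and lower in 3.

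Across 27 class means of both preparations, the gene closest in pattern to Gas6 was Ctsf (Pearson r = 0.87 of log2 CPM among 12498 genes), followed by Spats2, Snx24, Upp2 and Lrp6. Pros1 was closest to Lrp5 (r = 0.91), then Plod1, Acvr1 and Tnfsf12, and Mertk to Pald1 (r = 0.88), then Gna12, Rhob and Hebp1. Axl had no close match, with Lpl at r = 0.75 ahead of Tnfsf9, Gfra2, Fzd7 and Mrvi1. Tyro3 was closest to Gap43 (r = 0.84), then Lonrf2, Avil, 3632451O06Rik and Rundc3a, at levels near 0 in most classes. Gap43, Lonrf2 and Avil were highest in choroid plexus-like BA cells, a class whose name is uncertain, as was Tyro3 at 14.0 CPM. That class mean came from 18 cells of 1 library, and its weight in these correlations was not tested. Among the members, Pros1 and Mertk were the most alike pair (r = 0.74) and Gas6 and Axl were at r = 0.18. These correlations describe class means that share libraries and depth, and carry no test.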

How the data were processed

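UMI counts per gene and cell barcode of 6 libraries (10x Genomics Chromium, 3′ chemistry) were used as the authors deposited them, raw and not normalized, on the mm10 build. The submitters' processing notes name Cell Ranger 3, whereas the file headers name a later version. The study's methods describe collagenase and dispase with sorting of viable nucleated cells, whereas the labels describe papain, so the dissociation is not settled. The depth was 8408685 to 56169736 UMIs per library.

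Barcodes entered as cells if 500 or more genes were detected and mitochondrial UMIs made up no more than 10% (Python 3.11.15, scipy 1.17.1, scikit-learn 1.9.0). Doublets were scored against 2 simulated doublets per cell, and 0.8% per 1000 cells were removed. Each preparation was clustered by the Leiden method (leidenalg 0.10.2, 2000 variable genes, 30 components, 15 neighbours, resolution 1.5) without the members, the check genes or the pathway genes. A cluster was named when at least 3 markers of a class led it. Choroid plexus and ependymal markers were allowed together after the clusters had been seen.

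UMIs were summed per library and class of at least 10 cells and tested with the edgeR 4.0.16 quasi-likelihood test (R 4.3.3, TMM), on genes detected in over 10% of cells of either group. Comparisons across preparations used both groups only, and those within a preparation used all named classes with library as covariate. Calls needed a Benjamini-Hochberg adjusted p below 0.05 and a log2 fold change of 1.3 or more in either direction. The alternatives were DESeq2 1.42.0, other size factors, detection and cell filters, thinning to 1500 UMIs, the replicate block and leaving out libraries. Those added after seeing the data were the use of CSA1 and CSA2 alone, the clusters led by Ccl7, Ccl19 or Gkn3, the unnamed cluster led by H2-Eb1, and the test of the difference between the changes of 2 classes. On simulated data for leptomeningeal against dural cells (9597 genes), 93% of changes of 2.5 and 56% of changes of 1.5 (log2) were called.

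The members, the marker and pathway lists and the tests were chosen with earlier results of these data known. The genes named are the 5 members, pathway genes called in 2 comparisons, the 5 genes most like each member among those reaching 20 CPM (log2 of CPM + 1), and check genes of the class names. H2-Eb1 was added after its values were seen. A few named genes and some clusters of pericyte-like cells are not reported here. Replicate libraries each pool several mice, per the study's methods, so p-values of comparisons between preparations measure the spread between pools. Where library was a term, p-values measure the spread left after the differences between libraries are removed. Within a preparation that spread was estimated over all named classes, with 29 residual degrees of freedom for CSA and 11 for BA libraries.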

Additional observations from a re-analysis of the deposited data

Results flagged for a closer look

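In 5 of 34 groups of 4 libraries, 1 library stood apart from the other libraries by Dixon's criterion. Its rate of about 1 in 20 by chance assumes a normal spread, so 5 of 34 cannot be set against it for counts near 0. All 5 were low levels. Tyro3 in leptomeningeal cells was at 10.1 CPM in CSA3 and at 0 to 1.54 CPM in the other libraries, and Gas6 in dendritic-like cells was at 16.7 CPM in CSA3 and at 0 to 2.5 CPM elsewhere. CSA3 is the library with the highest share of hemoglobin UMIs, and its part was not tested. In CSA4, Axl in B-like cells (1.12 CPM), Mertk in T or NK-like cells (1.23 CPM) and Tyro3 in microglia-like cells (0.412 CPM) were above 0 while the other 3 libraries had no UMI. A group with UMIs in only 1 library always meets the criterion.

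The change between preparations differed between mesenchymal-like and border macrophage-like cells by -3.62 for Gas6 and by 2.98 for Axl on the log2 scale (edgeR quasi-likelihood test of the difference, adjusted p = 1.24e-05 and 2.45e-05). Gas6 kept this direction and its call with the unnamed H2-Eb1-led cluster counted as border macrophages (-3.24), and Axl did not (0.45, edgeR adjusted p = 0.658).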

How the results depend on the processing

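The number of members called stayed within 1.5 times in 165 alternative fits and moved further in 7. Of the members' log2 fold changes under the alternatives, 613 kept their direction and side of the threshold, 20 changed direction, 5 kept it and newly passed the threshold, and 1 kept it and no longer passed. Between border macrophage-like cells of the preparations it went from 1 to 0 with thinning, where Axl was no longer tested, and to 0 with the unnamed H2-Eb1-led cluster added, where Axl was at -0.45. The same cluster turned Axl to -0.74 in leptomeningeal against border macrophage-like cells, which left 2 of 3 called members there. It also brought Axl into the fit against microglia-like cells, with 4 called in place of 3. Axl passed the detection limit in that fit only through the added cells, so its call is not read as a result. Between leptomeningeal and endothelial-like cells 3 members were called with up to 20% mitochondrial UMIs, and 2 were called in each dural comparison with detection over 5%, where Tyro3 entered the test. Tyro3 passed that limit only through the dural cells, with 19 UMIs against 0 in border macrophage-like and 1 in endothelial-like cells. Its call is therefore not read as a result. Leaving out 1 library at a time gave 1 to 2 called members for leptomeningeal against dural cells and 0 to 1 for pericyte-like cells. The cause of these moves was not tested, beyond the smaller gene and cell sets themselves.

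The number of genes called was lower with cells thinned to 1500 UMIs, at 571 for leptomeningeal against dural cells, 122, 283, 208 and 179 for border macrophage-like, endothelial-like, pericyte-like and VSMC-like cells between preparations, 611, 1276 and 1057 for the comparisons within the cortical surface and 1431 and 1023 within the bone-associated libraries. Without a detection filter it was 861, 941 and 753 for border macrophage-like, endothelial-like and pericyte-like cells and 2211 for border macrophage-like against microglia-like cells. It was 284 for border macrophage-like cells with the H2-Eb1-led cluster added. Leaving out 1 library gave 269 to 504 genes for border macrophage-like cells and 329 to 552 for pericyte-like cells, the lowest without BA2 in both.

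The one called value that changed direction was Axl with the H2-Eb1-led cluster, above. The other changes of direction were of values that had not been called. For Pros1 in border macrophage-like cells the log2 fold change was -0.051 with DESeq2, -0.011 with at least 1000 genes per cell, -0.0072 without doublet removal, -0.031 when thinned, -0.13 with the H2-Eb1-led cluster and between -0.41 and 0.35 with 1 library left out. With 1 library left out, Pros1 ranged from -0.14 to 0.82 in leptomeningeal against dural cells and from -0.27 to 0.45 in pericyte-like cells, Axl from -0.016 to 0.17 in pericyte-like cells, and Mertk from -0.36 to 0.090 in VSMC-like cells and from -0.45 to 0.043 in leptomeningeal against endothelial-like cells. Mertk in leptomeningeal against dural cells was -0.39 with up to 20% mitochondrial UMIs, and in VSMC-like cells 0.038 when thinned. Axl in pericyte-like cells was -0.16 without the clusters led by Ccl19, and in dural against border macrophage-like cells it went from -1.05 to 0.69 when thinned. Pros1 in microglia-like cells was 263 CPM when thinned, and Mertk in BA border macrophage-like cells was 181 ± 121 CPM (SD, n = 2) against 97.4 CPM. In the bone-associated comparisons, leaving out 1 library left no residual degrees of freedom and was not run.

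By their labels, same-numbered libraries of the 2 preparations are linked only by the number. With a replicate block the members called were 1, 1, 0, 0 and 0 in the 5 comparisons between preparations, and the genes called 1401, 522, 571, 510 and 567. Same-numbered libraries deviated together with correlations of 0.011 to 0.54 across genes. With 2 libraries per group in this check, other-numbered correlations were the same values with the sign reversed, so it could not settle whether libraries were paired. Without the library term the comparisons within a preparation called 3, 3, 1, 1 and 1 members. With detection in over 10% of cells required, Tyro3 entered no comparison. The BA1 values of border macrophage-like cells rest on 16 cells and those of dural cells on 32.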
